A study of Mus musculus with 3 samples.

Results

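The genes described here encode subunits of the respiratory chain and of ATP synthase. They were chosen by symbol in the raw count matrices. Nuclear members carry a symbol that begins with Ndufa, Ndufb, Ndufc, Ndufs or Ndufv, with Sdha to Sdhd, with Uqcr, with Cox4 to Cox8, or with Atp5. Mitochondrial members are the mt-Nd, mt-Co, mt-Atp and mt-Cytb genes. Symbols with -ps (pseudogenes) and the Ndufaf assembly factors were left out. The rule found 98 of 31053 genes, 85 of them nuclear and 13 mitochondrial, and the 13 are all the mt- symbols in the matrices. By symbol, 38 nuclear members belong to complex I, 4 to complex II, 8 to complex III, 18 to complex IV and 17 to complex V. The mitochondrial members belong to complex I (7), complex III (1), complex IV (3) and complex V (2).

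The respiratory chain sits in the inner mitochondrial membrane. Complexes I and II pass electrons from NADH and succinate to ubiquinone, complex III passes them on to cytochrome c, and complex IV gives them to oxygen. The protons pumped on the way drive complex V, the ATP synthase. All complexes but complex II are built from subunits of both genomes: nuclear subunits are made in the cytosol and imported, while the mitochondrial subunits are transcribed and translated inside the organelle. In droplet data, a high share of mt- transcripts is widely used as a sign of a damaged cell that has lost cytosolic RNA, and such barcodes are often removed.

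The tumors came from TH-MYCN mice, heterozygous for a transgene in which the tyrosine hydroxylase promoter drives human MYCN in cells of the sympathetic lineage, a model of neuroblastoma. Each of 3 mice gave 1 whole tumor. Mouse age was 62 days for tumor 1, 79 for tumor 2 and 63 for tumor 3, and all belong to 1 group. They were dissociated with Liberase TL and DNase, and cells were captured with the 10x Chromium 3' chemistry (v3.1), which tags each molecule with a unique molecular identifier (UMI) near its 3' end. The matrices hold 3257, 4327 and 6038 barcodes with 17319241, 21829496 and 20041044 UMIs.

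Barcodes that also appear in the authors' normalized matrices are called kept, and the others not kept. Kept barcodes numbered 1914, 1221 and 2515 and those not kept 1343, 3106 and 3523. The authors' filter removed barcodes with a mitochondrial share over 20%, among other limits, so the mitochondrial share of kept and not kept barcodes is described and never tested here. Median depth of kept and not kept barcodes was 4282.5 and 925 UMIs in tumor 1, 1594 and 5351.5 in tumor 2, and 1816 and 3703 in tumor 3. Not kept barcodes were thus the shallower ones in tumor 1 and the deeper ones in tumors 2 and 3. The normalized matrices hold 94, 92 and 93 of the 98 members.

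Barcodes were clustered on genes other than the members, and clusters were named from marker genes. Named classes were tumor-like, macrophage-like, T cell-like, B cell-like, neutrophil-like, plasmacytoid dendritic-like, endothelial-like, erythroid-like and CAF-like (cancer-associated fibroblast-like). Markers were checked in both kinds of barcode, over all tumors together. At least 10% of kept tumor-like barcodes had a UMI for 11 of 12 tumor markers, led by Stmn2, and of not kept ones for 12 of 12, led by Chgb. In tumor 1, however, a Chgb UMI was found in only 12.2% of not kept tumor-like barcodes (18.2% of kept), against 93.9% and 94.5% in tumors 2 and 3, at a median depth of 800 UMIs against 5500 and 3876. The class name is less well supported there. The same count was 11 and 12 of 12 macrophage markers, 8 and 6 of 9 T cell markers, and 8 and 8 of 8 fibroblast markers. The kept CAF-like barcodes also showed 7 of 8 pericyte markers, led by Acta2. A cluster of 1347 barcodes led by hemoglobin genes and a cluster of 41 stayed without a name. The first met 9 of 12 tumor markers and 3 of 7 erythroid markers, and the second 6 of 6 mesothelial markers.

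Tumor 1 differs from the others in its makeup and in how much tumor RNA its other classes carry, free RNA in the suspension being a known source of such reads. Its barcodes not kept were mostly T cell-like (687) rather than tumor-like (262), while in tumors 2 and 3 the tumor-like numbered 2911 and 3045. The 12 tumor markers together gave 0.354%, 0.369% and 0.397% of the non-mitochondrial UMIs of kept tumor-like cells. In tumor-like barcodes not kept they gave 0.317%, 0.807% and 0.588%. In kept T cell-like cells they gave 0.0131%, 0.202% and 0.340%, and in kept macrophage-like cells 0.00479%, 0.0980% and 0.142%. In tumors 2 and 3, then, other classes carried tumor transcripts, and their nuclear shares below include that RNA. Its part in the results was not tested.

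For each tumor, class and kept status with at least 10 barcodes, the mitochondrial share is the percent of all UMIs that fall on the 13 mt- genes. The nuclear share is the percent of the remaining UMIs that fall on the 85 nuclear members, so that a change in mt- transcripts does not set its denominator. Over all kept barcodes the mitochondrial share was 4.28%, 5.52% and 4.46% in tumors 1, 2 and 3, and the nuclear share 1.78%, 3.14% and 3.51%. Over all barcodes not kept the mitochondrial share was 12.04%, 34.3% and 35.4%, and the nuclear share 1.60%, 3.32% and 3.15%. The mitochondrial share was thus far higher in barcodes not kept of each tumor, while the nuclear share of these sums differed less and in no common direction. The median nuclear share of single barcodes was lower in barcodes not kept of every tumor (kept and not kept 1.58% and 0.960%, 3.45% and 3.40%, and 3.68% and 3.21%).

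The median mitochondrial share of single barcodes was 3.17%, 3.13% and 2.44% among kept and 27.9%, 35.0% and 37.7% among not kept. At or above the limit of 20% lay 0, 0 and 1 kept barcodes (the last at 25.5%) and 1056, 2899 and 3251 not kept, which are 78.6%, 93.3% and 92.3% of those not kept. Just inside the limit, at 15 to 20%, lay 54, 53 and 65 kept barcodes beside 64, 136 and 132 not kept, and just outside, at 20 to 25%, lay 199, 258 and 204 not kept. Most but not all of the barcodes not kept thus lay above the limit, and 287, 207 and 272 lay below it.

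**Figure D1:**
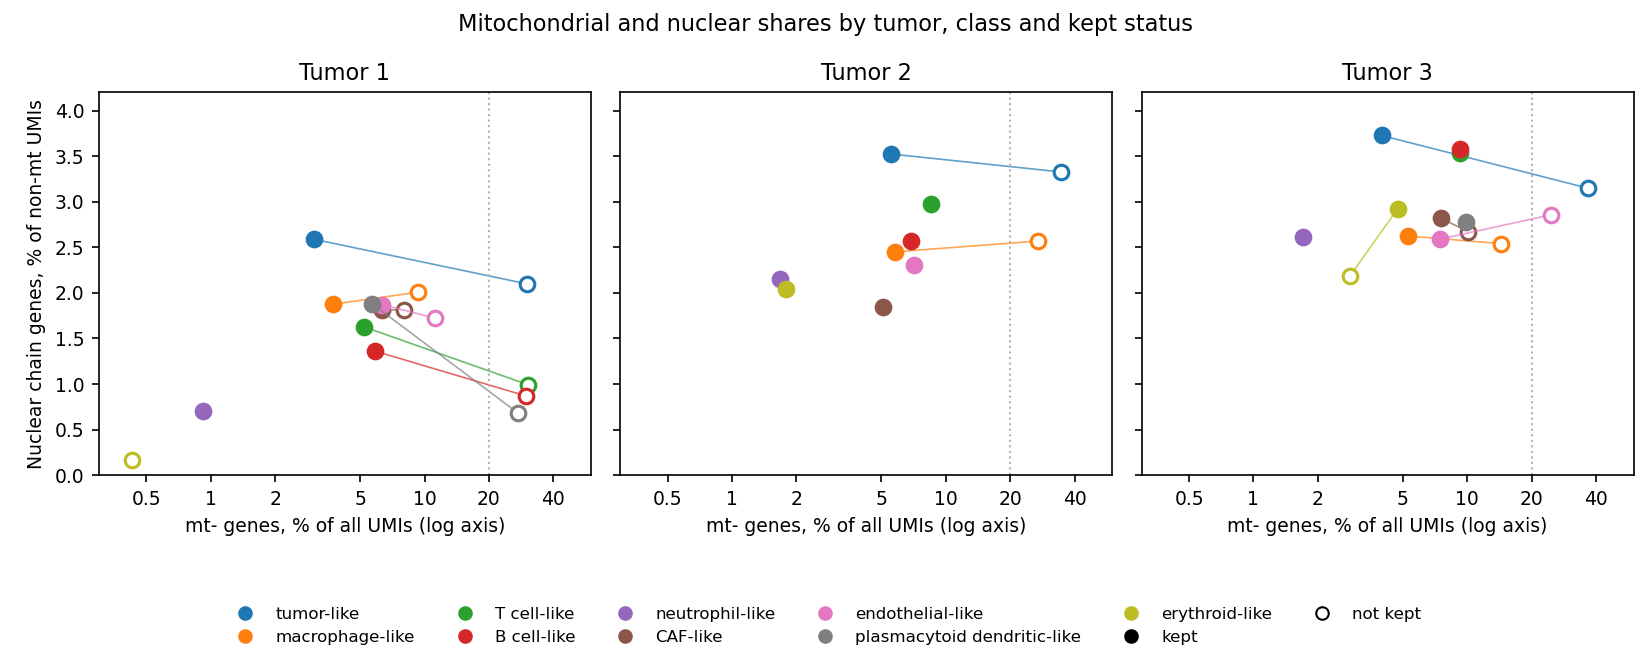
Mitochondrial share of all UMIs (x, log axis, dotted line at 20%) and nuclear share of non-mitochondrial UMIs (y) for each class in each tumor, filled for kept and open for not kept barcodes, with a line joining the points of a class. Kept tumor-like cells sit at 2.59%, 3.52% and 3.73% on the nuclear axis, and not kept ones lie far to the right at 2.10%, 3.33% and 3.15%.

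Among kept cells, the tumor-like class had the highest nuclear share of the named classes in every tumor. It was 2.59%, 3.52% and 3.73% in tumors 1, 2 and 3. The mean over the 6 other classes with at least 10 kept barcodes in all tumors was 1.54%, 2.38% and 2.96%. The difference was 0.984 ± 0.195 percentage points (SD, n = 3), positive in 3 of 3 tumors, and larger than the spread between tumors. The exact sign-flip test gave a two-sided p of 0.25, the smallest that 3 tumors allow. The margin was small in places: in tumor 3 the B cell-like and T cell-like shares reached 3.58% and 3.54%, and the unnamed barcodes 3.75%.

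The other kept classes kept no fixed order. The T cell-like nuclear share was 1.63%, 2.97% and 3.54%, the B cell-like 1.36%, 2.57% and 3.58%, and the macrophage-like 1.88%, 2.45% and 2.62%. The CAF-like share was 1.82%, 1.84% and 2.82%, and the endothelial-like 1.87%, 2.30% and 2.59%. Each of these was lowest in tumor 1, where the tumor markers in other classes were also lowest, and their spread between tumors exceeds most gaps between them. The neutrophil-like share was 0.702% in tumor 1, the lowest of the kept classes there, but 2.15% and 2.62% in tumors 2 and 3. Plasmacytoid dendritic-like cells had 1.88% and 2.78% in tumors 1 and 3, and erythroid-like cells 2.04% and 2.92% in tumors 2 and 3.

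The mitochondrial share ordered the kept classes differently. As sums, neutrophil-like cells were at 0.925%, 1.67% and 1.71%, below every other kept class in each tumor. Tumor-like cells followed in tumors 1 and 3 (3.03% and 3.98%) and lay at 5.53% in tumor 2. By medians of single barcodes this order did not hold throughout. The lowest median of a tumor was 0.273% in kept tumor-like and 0.326% in kept neutrophil-like cells. In tumor 1, 217 of the 307 kept tumor-like barcodes had a mitochondrial share under 1%. The sums were as follows in other classes. T cell-like cells were at 5.19%, 8.56% and 9.24%, B cell-like at 5.84%, 6.84% and 9.26%, and endothelial-like at 6.34%, 7.10% and 7.45%. Tumor-like cells thus combined the highest nuclear share with a mitochondrial share below that of the lymphoid and endothelial classes. Per nuclear UMI, kept tumor-like cells held 1.21, 1.66 and 1.11 mitochondrial UMIs, and kept T cell-like cells 3.36, 3.15 and 2.88. Over the 8, 8 and 9 classes of a tumor, the Spearman correlation of the 2 shares was 0, 0.595 and 0.15, so they did not go together in a common way. These classes share their library and its free RNA.

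Tumor-like barcodes not kept had a mitochondrial share of 30.3%, 34.7% and 36.8%, against 3.03%, 5.53% and 3.98% in kept ones. Their nuclear share was 2.10%, 3.33% and 3.15%, against 2.59%, 3.52% and 3.73%. Nuclear-encoded transcripts of the chain were therefore lower in not kept barcodes in 3 of 3 tumors, by 0.491, 0.198 and 0.579 points, while the mitochondrial share was many times larger. In tumor 1 the value of 2.10% joins 27 barcodes under the limit at 3.36% and 235 at or over it at 1.14%, and at or over the limit tumors 2 and 3 had 3.33% and 3.13%. The mean difference was -0.422 ± 0.199 points (SD, n = 3), with an exact sign-flip p of 0.25 (two-sided, the smallest possible). Not kept tumor-like barcodes were also richer in long noncoding RNA of the nucleus (Malat1, Neat1, Meg3, Kcnq1ot1 and Snhg11), at 3.28%, 2.18% and 2.59% against 0.728%, 0.935% and 0.726%. Their ribosomal protein transcripts were at 17.3%, 17.7% and 17.9% against 19.6%, 24.5% and 23.5%. The 12 tumor markers were at 0.317%, 0.807% and 0.588% against 0.354%, 0.369% and 0.397%. Within the clusters described next, the long noncoding share of kept and not kept barcodes had no common direction over the tumors. In cluster 0 it was 0.275% and 2.30%, 0.330% and 0.320%, and 0.3219% and 0.3802% in tumors 1, 2 and 3. In the other tumor-like clusters it was 1.13% and 3.33%, 2.70% and 2.26%, and 2.32% and 2.66%. It was thus higher in not kept barcodes of both groups of clusters in tumors 1 and 3, and lower in tumor 2. The part of these shifts in the nuclear share was not tested.

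Different clusters hold most of the tumor-like class in the 2 kinds of barcode. Cluster 0 holds 74.6%, 84.6% and 82.5% of the kept tumor-like barcodes, and 10.3%, 11.3% and 5.02% of those not kept. Of the latter the largest part lies in cluster 1 in tumors 1 and 3 (76.7% and 44.0%) and in cluster 2 in tumor 2 (35.7%), with the rest spread over the other tumor-like clusters. Within cluster 0 the nuclear share of kept and not kept barcodes was 2.52% and 1.86%, 3.64% and 4.01%, and 3.92% and 3.87% in tumors 1, 2 and 3. In the other tumor-like clusters together it was 2.65% and 2.11%, 3.18% and 3.30%, and 2.95% and 3.13%. Within these groups of clusters, a split chosen after seeing the data, the mean difference was -0.114 and -0.0847 points and had no common sign. In tumor 1 barcodes not kept were lower within both groups, by at least as much as over the whole class, while in tumors 2 and 3 the difference was small or positive.

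Barcodes in narrow ranges of the mitochondrial share show the tumors apart. In tumor 1, tumor-like barcodes with under 1% of mt- UMIs had a nuclear share of 2.50%, and those at 20 to 30% and 30 to 40% had 0.988% and 1.12%. In tumor 2 the same ranges gave 3.45%, 3.38% and 3.33%, and in tumor 3 3.90%, 3.25% and 3.12%. The nuclear share was flat over the whole range in tumor 2, mildly lower at a high mitochondrial share in tumor 3, and much lower in tumor 1 above 20%. Over single barcodes the Spearman correlation of the 2 shares was near 0 in kept tumor-like cells of tumor 1 (-0.0923, n = 307) and tumor 2 (0.108, n = 797) and -0.240 (n = 1488) in tumor 3. Not kept barcodes gave 0.0209 (n = 262), -0.118 (n = 2911) and -0.0269 (n = 3045). All were weak, and sparse counts limit them. The few tumor-like barcodes not kept despite a share under 20% (27, 142 and 115) had nuclear shares of 3.36%, 3.34% and 3.28%. In tumor 1 the 27 had a median depth of 583 UMIs, and the deeper of them hold most of that sum.

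Macrophage-like barcodes not kept (50, 16 and 53) had a mitochondrial share of 9.28%, 27.0% and 14.4%, against 3.73%, 5.81% and 5.27% in kept ones. Their nuclear share was 2.01%, 2.57% and 2.54%, against 1.88%, 2.45% and 2.62%. The difference was 0.0560 ± 0.121 points (SD, n = 3), positive in 2 of 3 tumors, and within the spread between tumors (exact sign-flip p = 0.5, two-sided). Its sign depends on the measure, since medians of single barcodes gave -0.215. The part of these barcodes at or over the limit (24, 11 and 23) had 1.23%, 2.33% and 2.48%, below the kept value in each tumor. The 12 tumor markers gave 0.00877%, 0.379% and 0.107% of the non-mitochondrial UMIs of all macrophage-like barcodes not kept, against 0.00479%, 0.0980% and 0.142% in kept ones. The marker share was thus higher in barcodes not kept of tumors 1 and 2 and lower in tumor 3. Its part in the nuclear share was not tested.

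Other classes had enough barcodes not kept in tumor 1 alone or in tumors 1 and 3, and they were not tested. T cell-like barcodes not kept (687) had a mitochondrial share of 30.4% (95% interval 30.3 to 30.5%, Clopper-Pearson, counting error only) and a nuclear share of 0.994% (0.965 to 1.02%), against 5.19% and 1.63% in kept ones. B cell-like (29) had 29.8% and 0.870% (0.746 to 1.01%), against 5.84% and 1.36%. Plasmacytoid dendritic-like (18) had 27.3% and 0.684% (0.583 to 0.797%), against 5.69% and 1.88%. Other measures of the T cell-like barcodes moved too. Median depth was 4902 UMIs in kept and 896 in not kept, and the long noncoding share was 3.03% in kept and 6.66% in those at or over the limit. Ribosomal protein transcripts gave 28.6% at a mitochondrial share of 2 to 5% and 12.9% at 20 to 30%. The part of these measures in the nuclear share was not tested. In tumor 1, then, lymphoid and dendritic barcodes not kept held fewer nuclear chain transcripts per non-mitochondrial UMI. The stromal classes of that tumor did so less: CAF-like barcodes not kept (37) had 8.06% and 1.81% against 6.32% and 1.82%, and endothelial-like (25) 11.2% and 1.72% against 6.34% and 1.87%. In tumor 3 CAF-like barcodes not kept (15) had 10.1% and 2.67% against 7.51% and 2.82%, and endothelial-like (12) 24.7% and 2.86% against 7.45% and 2.59%.

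Erythroid-like barcodes were the opposite extreme. In tumor 1 the 146 not kept had a mitochondrial share of 0.428% and a nuclear share of 0.166%, while hemoglobin genes gave 88.9% of their non-mitochondrial UMIs. These are the lowest shares of both kinds among the classes of tumor 1, and with hemoglobin filling most of the denominator they say little about the remaining transcripts. In tumor 3, 16 erythroid-like barcodes not kept were at 2.84% and 2.19%, with hemoglobin at 44.0%.

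To compare single genes, the UMIs of kept cells were added up within each class of each tumor and fitted with edgeR's quasi-likelihood test, with Benjamini-Hochberg adjustment of p. Every class was compared with the average of the remaining ones, all weighted alike, and 5140 genes passed the filter on low counts, among them 76 of the 85 nuclear members. Levels are UMIs scaled to 1000000 per sum (CPM) after TMM scaling, and changes are log2 fold changes. Of the members left out by the filter, Cox8c and Atp5o had no UMI in any barcode, Cox8b had 5, Cox7b2 17, Cox7a1 86, Cox4i2 192, Atp5s 200 and Cox6b2 215, while Sdhc had 2110. Beside Atp5o the matrices hold a separate entry Atp5o.1, which had 17521 UMIs and was tested. The tumor is the replicate throughout.

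In tumor-like cells, 35 of the 76 tested nuclear members were higher and 0 lower (edgeR, adjusted p under 0.05), beside 24.6% of all genes higher and 2.67% lower. Before adjustment 56 of 76 had a p under 0.05, and the fitted change of all 76 was positive. The median change of the members was 0.74, against 0.37 over all genes tested. Complexes I and V led: 19 of 38 tested members of complex I (median 0.83) and 10 of 15 of complex V (0.76) were higher. The counts were 1 of 3 in complex II (0.54), 2 of 8 in complex III (0.65) and 3 of 12 in complex IV (0.48). Those of complexes III and IV lay near the share of 24.6% over all genes. As shares of the non-mitochondrial UMIs of kept tumor-like cells, complex I gave 0.850%, 1.27% and 1.27% and complex V 0.925%, 1.10% and 1.19%, while complex II gave only 0.0445%, 0.0401% and 0.0534%.

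This count depends on the scaling and on single tumors. DESeq2, with its own size factors, placed the median of all genes 0.91 lower on the log2 scale and called 0 members higher and 1 lower (Uqcrh, -0.56), with 4 at an unadjusted p under 0.05, beside 56 higher and 1349 lower among all 5140 genes. Of all its calls 3.99% were higher, against 90.2% with edgeR. Relative to the median of all genes, the members' median was 0.36 above it with edgeR and 0.50 above with DESeq2, and 70 and 71 of 76 members lay above it. Under both scalings with all tumors the members thus lay above the typical gene, while the number of calls did not hold. The margin was small with a tumor left out: 0.34 against 0.19 over all genes without tumor 1, 0.52 against 0.49 without tumor 2 and 0.70 against 0.64 without tumor 3. Erythroid-like cells, with no member called, had members further above the median of all genes (by 1.03 with edgeR and 0.57 with DESeq2). Without tumor 1, 2 or 3 the edgeR count was 0 each time (11, 2 and 14 at an unadjusted p under 0.05). Over all genes the same fits called 87 of 4548, 0 of 12366 and 1193 of 11574 higher, so without tumor 2 nothing was called at all. Among the members, without the 26 erythroid-like cells, an alternative chosen after seeing the data, the count was 2 of 78, beside 1367 of 10159 genes higher and 1617 lower (1262 and 137 of 5140 in the main fit). With the tumor as a block it was 55, beside 1730 of 5140 genes. By complex these were 30 of 38 in complex I, 1 of 3 in complex II and 6 of 8 in complex III. Complex IV had 4 of 12 and complex V 14 of 15. The counts of complexes II and IV lay near the share over all genes in that fit. The class tests of single genes below are without the block, and members that did not pass there may pass with it.

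The complex I members past the test with the largest changes include core subunits of its matrix arm. Ndufv2, a subunit of the NADH-oxidizing module that carries an iron-sulfur cluster, had 251, 424 and 362 CPM in tumor-like cells of tumors 1, 2 and 3, against medians of 121, 164 and 176 over the other classes. Ndufs7, which carries the last iron-sulfur cluster before ubiquinone, had 183, 259 and 247 against 105, 118 and 138. In each tumor both genes were higher in tumor-like cells than in any other class. The changes were 1.15 ± 0.29 (SE, adjusted p = 0.0111) for Ndufv2 and 1.17 ± 0.33 (adjusted p = 0.0156) for Ndufs7.

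Further complex I members of that rank were accessory subunits. Ndufa5, of the matrix arm, had 325, 458 and 596 CPM against medians of 108, 220 and 300 in the other classes. Ndufv3, a small subunit of the NADH-oxidizing module, had 328, 501 and 456 against 129, 239 and 213. Ndufc2, a membrane-arm subunit, had 296, 554 and 619 against 133, 204 and 283. All 3 were above every other class in every tumor, with changes of 1.17 ± 0.41 (adjusted p = 0.0402), 1.16 ± 0.31 (0.0128) and 1.15 ± 0.40 (0.0383). None of these 5 genes passed with any tumor left out, and the smallest change then was 0.49 for Ndufa5, 0.62 for Ndufc2, 0.63 for Ndufv2 and Ndufv3 and 0.69 for Ndufs7.

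By level, Ndufa4, Ndufab1 and Ndufc2 led complex I in kept tumor-like cells. Ndufa4, which is named for complex I but is now assigned to complex IV, had 358, 710 and 835 CPM and passed the test (0.78 ± 0.25, adjusted p = 0.0263), although in tumor 1 it lay below the other classes' median of 367. Ndufab1, the mitochondrial acyl carrier protein, had 375, 576 and 723 CPM and lay above every other class in each tumor, but its change of 1.16 ± 0.44 did not pass without the block (adjusted p = 0.0553).

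Complex II is succinate dehydrogenase, shared with the citric acid cycle and wholly encoded in the nucleus. Its membrane anchor Sdhd had 119, 101 and 164 CPM in tumor-like cells, against medians of 71.3, 62.7 and 30.3 in the other classes, and was the only one of its 3 tested genes to pass (0.99 ± 0.35, adjusted p = 0.0431). The iron-sulfur subunit Sdhb had 111, 139 and 229 CPM against 97.6, 109 and 130 (0.54 ± 0.30, adjusted p = 0.193). The flavoprotein subunit Sdha had 102, 93.3 and 138 against 105, 45.7 and 93.4 (0.41 ± 0.47, adjusted p = 0.661). The other anchor, Sdhc, did not pass the filter on low counts.

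In complex III, the core subunit Uqcrc2 (0.73 ± 0.21, adjusted p = 0.0184) and the Rieske iron-sulfur protein Uqcrfs1 (0.90 ± 0.29, adjusted p = 0.0286) were higher in tumor-like cells. The most abundant members there were small subunits: Uqcrh at 430, 580 and 781 CPM, Uqcrq at 337, 494 and 637, and Uqcr11 at 285, 517 and 613. None of these passed the edgeR test without the block, and Uqcrh lay below the other classes' median of 602 in tumor 1. With the block 6 of 8 members of complex III were higher. In complex IV, Cox7c had 902, 1343 and 1797 CPM against medians of 715, 822 and 858 and was higher (0.79 ± 0.27, adjusted p = 0.0351), as were Cox5a (0.78 ± 0.26) and Cox7a2 (0.78 ± 0.27), both at an adjusted p of 0.035. Cox4i1, the regulatory subunit that binds ATP, had 567, 1023 and 1353 CPM and Cox8a 579, 1082 and 1177. In tumor 1 Cox4i1 was lowest in tumor-like cells of all classes, and neither gene passed.

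In complex V, Atp5b, the catalytic beta subunit, had 1218, 1059 and 1564 CPM in tumor-like cells against medians of 534, 550 and 790 in the other classes, and was above every class in each tumor (1.02 ± 0.26, adjusted p = 0.0111). Atp5a1, the alpha subunit that alternates with it in the catalytic head, was also higher (0.90 ± 0.23, adjusted p = 0.0113). So was Atp5j2, a subunit of the membrane part, at 500, 862 and 1081 CPM against 438, 450 and 539 (0.76 ± 0.26, adjusted p = 0.0375). Atp5e, the small epsilon subunit of the central stalk, had 825, 1207 and 1671 CPM against 814, 829 and 877 and did not pass without the block (0.56 ± 0.23, adjusted p = 0.0709). With the block 14 of 15 tested members of complex V were higher.

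**Figure D2:**
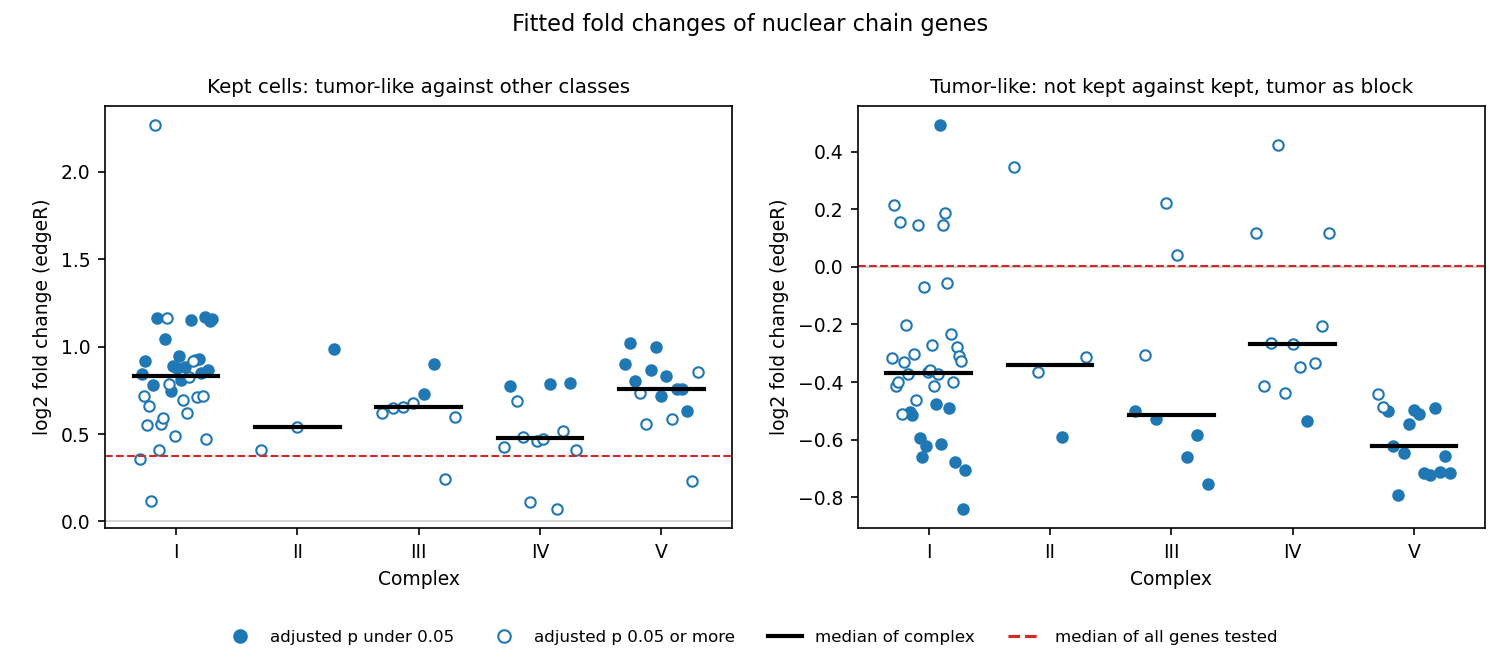
Log2 fold change (edgeR) of each tested nuclear member, by complex, in kept tumor-like cells against the other classes (left) and in not kept against kept tumor-like barcodes with the tumor as a block (right), filled where the adjusted p was under 0.05, with the median of the complex (black) and of all genes (red, dashed). On the left the medians of complexes I and V are 0.83 and 0.76 above a median of 0.37 over all genes, and on the right 13 of 15 members of complex V were lower.

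In neutrophil-like cells, 5 of 76 members were lower and 0 higher, beside 2.78% of all genes lower and 19.2% higher. Before adjustment 16 had a p under 0.05, and DESeq2 is given below. The members' median was -0.44, against -0.03 over all genes. The 5 include Ndufa11, a membrane-arm subunit of complex I, at 21.4, 146 and 49.1 CPM against medians of 162, 213 and 196 in the other classes (-1.41 ± 0.43, adjusted p = 0.0211). Ndufs3, a core subunit of the matrix arm, had 26.7, 69.7 and 49.1 against 97.6, 93.3 and 107 (-1.15 ± 0.38, adjusted p = 0.0328). Ndufv1, which binds NADH, had 29.4, 55.7 and 32.8 against 74.9, 73.1 and 104 (-1.13 ± 0.40, adjusted p = 0.0465). All 3 were below the other classes' median in every tumor, but with a tumor left out their changes ranged from -2.70 to -0.63, from -1.76 to -0.41 and from -1.73 to -0.65.

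The other genes lower in neutrophil-like cells belong to complexes III and IV. Uqcrc2 had 56.2, 69.7 and 81.9 CPM against 131, 126 and 132 (-0.93 ± 0.27, adjusted p = 0.0154), and Cox5a, a matrix-side subunit of complex IV, had 150, 300 and 229 against 326, 402 and 476 (-0.93 ± 0.32, adjusted p = 0.0383). Cox5a was lowest in neutrophil-like cells in every tumor. DESeq2 called 1 lower (Ndufa11) and 3 higher (Atp5l, Cox8a and Ndufa7), with the median of all genes 0.28 higher, beside 51 lower and 1200 higher of 5140 genes. Relative to it, the members' median was -0.41 with edgeR and -0.31 with DESeq2. Without tumor 1 the members' median was -0.04 against 0.05 over all genes, without tumor 2 -0.65 against -0.05, without tumor 3 -0.28 against 0.34, and without the erythroid-like class -0.23 against a median near 0. Without tumor 1, 2 or 3, 0, 1 and 0 members were lower, beside 38 of 4548, 71 of 12366 and 12 of 11574 genes, and with the tumor as a block 13 were lower and 1 (Cox6a2) higher, beside 305 lower and 1114 higher of 5140 genes.

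Calls in the other classes were few. In T cell-like, B cell-like, macrophage-like, endothelial-like and erythroid-like cells edgeR called 0 members in either direction, beside 2.61%, 3.75%, 13.2%, 14.2% and 0.233% of all genes. At an unadjusted p under 0.05 it had 0, 2, 1, 2 and 4 members, and DESeq2 called 0 in each class (1, 4, 3, 5 and 4 unadjusted). Over all 5140 genes DESeq2 called 49, 109, 472, 620 and 0 higher and 5, 24, 71, 37 and 28 lower. Without tumor 3, 1 member was higher in endothelial-like cells, and with the tumor as a block 1 (Cox6a2) in macrophage-like cells. For erythroid-like and macrophage-like cells, 91.7% and 98.2% of the edgeR calls over all genes were higher, against 0% and 86.9% with DESeq2, which moved the median of all genes by 0.68 and -0.02. It moved that of T cell-like and CAF-like cells by -0.22 and -0.10. CAF-like and plasmacytoid dendritic-like cells had 1 higher member each, beside 17.1% and 6.93% of all genes, and both are tissue isoforms.

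Some nuclear subunits have isoforms with restricted use, and these gave the sharpest differences between classes. Their levels are given as UMIs per 1000000 non-mitochondrial UMIs. Ndufa4l2, a paralog of Ndufa4 known as a target of the hypoxia-inducible factor, stood at 211, 233 and 440 in kept CAF-like cells of tumors 1, 2 and 3, against 2.17, 6.16 and 5.75 in all other kept cells pooled. The ratios were 97.5, 37.8 and 76.5. It also stood high in CAF-like barcodes not kept, at 235 in tumor 1 and 454 in tumor 3. The edgeR change was 8.05 ± 0.60 (adjusted p = 5.9e-09), a value that depends on the prior count. The gene passed the filter on low counts through the class where it is high, so this p adds no support to the levels. DESeq2 called Ndufa4l2 too, with Ndufa13, a further subunit of complex I, beside 770 higher and 59 lower of 5140 genes. With tumor 2 or tumor 3 left out, 2 members passed in place of 1.

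Cox4i2, the alternative form of Cox4i1 known from lung and for its induction at low oxygen, was at 54.2, 54.8 and 78.6 in kept CAF-like cells, from 49, 4 and 10 UMIs. The other named classes of kept cells together held 6, 3 and 3 UMIs. Among kept cells of named classes, most UMIs of the gene thus lay in this class in tumors 1 and 3, while tumor 2 had too few to tell. It did not pass the filter on low counts with all classes in the fit. Among kept CAF-like cells both genes were concentrated in those that carry the pericyte gene Rgs5: kept cells with an Rgs5 UMI (47) had 513 for Ndufa4l2 and 139 for Cox4i2, and those without (60) had 62.6 and 4.47. Among CAF-like barcodes not kept the split held for Cox4i2 (123 with and 9.61 without an Rgs5 UMI) but not for Ndufa4l2 (271 and 273). There 16 barcodes with a UMI of the fibroblast gene Pdgfra, of a median depth of 56624.5 UMIs, held 50 of the Cox4i2 UMIs and 40 without one held 6, while among kept cells those with Pdgfra held 0. It was chosen after seeing the data and is a description. The common forms were used in all classes: Cox4i1 stood at 639, 1047 and 1203 in kept tumor-like cells, where Cox4i2 was at 0, 1.33 and 0.676.

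Cox6a2, known as the heart and muscle form of Cox6a1, was high in plasmacytoid dendritic-like cells. It stood at 537 in tumor 1 and 251 in tumor 3 in kept cells, against 5.88 and 0.982 in the other named classes of kept cells pooled. In those not kept in tumor 1 it stood at 255. The edgeR change was 9.36 ± 0.75 (adjusted p = 2.5e-06), again dependent on the prior count. DESeq2 gave 7.54 ± 3.09 and did not call the gene, with 0 members called and 4 at an unadjusted p under 0.05, beside 207 higher and 17 lower of 5140 genes. Since Cox6a2 was low elsewhere, its passing of the filter on low counts may rest on plasmacytoid dendritic-like cells. Its p thus adds no support to the levels. Only 2 tumors hold at least 10 kept barcodes of this class. In tumor-like cells Cox6a1 stood at 197, 315 and 272, and Cox6a2 at 3.49, 0.663 and 0.676. The muscle form Cox7a1 reached 7.75, 0 and 0 in kept CAF-like cells, from 7, 0 and 0 UMIs, and Cox6b2, known from testis, stayed at 3.49, 5.31 and 2.37 in kept tumor-like cells. Cox7a2, Cox7b, Cox6b1 and Cox8a, the common forms, stood at 447, 320, 437 and 653 there in tumor 1.

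**Figure D3:**
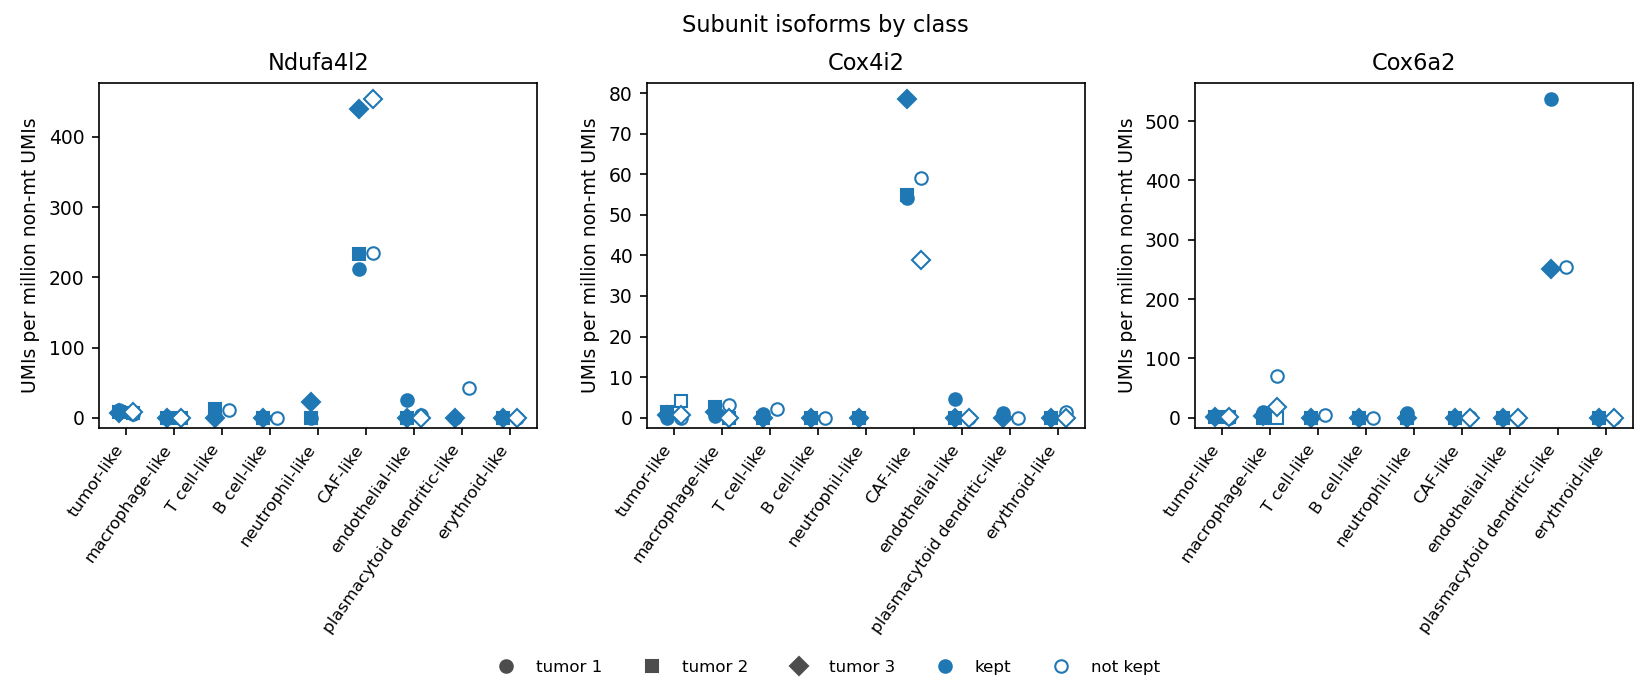
Levels of Ndufa4l2, Cox4i2 and Cox6a2 in UMIs per 1000000 non-mitochondrial UMIs (y) by class (x), with 1 marker shape per tumor, filled for kept and open for not kept barcodes. Ndufa4l2 reaches 211 to 440 in kept CAF-like cells, and Cox6a2 537 and 251 in kept plasmacytoid dendritic-like cells.

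Sums of not kept and kept tumor-like barcodes were compared for 9839 genes, 76 of them nuclear members. The fit without a block called 0 members (edgeR, 15 at an unadjusted p under 0.05), beside 1.13% of all genes called. With mt- genes left out of the library sizes and the fit, edgeR called 0 of 10212 genes. DESeq2 called 0 members (19 unadjusted), beside 426 higher and 25 lower of 9839 genes. The members' median was -0.40, against -0.01 over all genes, and 63 of 76 had a negative change. All 15 tested members of complex V were negative, with a median of -0.63, followed by complex III (-0.52), complex I (-0.36), complex II (-0.35) and complex IV (-0.27).

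The 2 sums of a tumor come from the same animal. With the tumor as a block, 31 members were lower and 1 higher in barcodes not kept, beside 11.6% of all genes lower and 17.3% higher. The 31 are 13 of 15 tested members of complex V, 5 of 8 of complex III, 11 of 38 of complex I, 1 of 4 of complex II (Sdhc) and 1 of 11 of complex IV (Cox7a2l). Complexes II and IV had 1 call each, and the 1 of 11 in complex IV lies below the share of 11.6% over all genes. Complexes were not tested against each other. As above, the cluster that holds most kept barcodes holds few of those not kept. Within cluster 0 alone no member was called with or without the block (0 and 1 at an unadjusted p under 0.05 without and with it), and the members' median was -0.04 against -0.08 over all genes. Few genes of any kind were called there: 13 of 5669 without and 37 with the block. In the other tumor-like clusters no member was called either (2 and 11 unadjusted), and the median was -0.03 against 0.01, with all 15 members of complex V negative (median -0.23), beside 13 and 77 of 6413 genes called. A count of 0 members in these fits thus says little about the members. DESeq2 was not run within these clusters.

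Atp5e shows the pattern: 745, 1039 and 1300 CPM in kept and 540, 534 and 689 in not kept tumor-like barcodes, lower in 3 of 3 tumors (-0.79 ± 0.15 with the block, adjusted p = 0.00579, and 0.126 without). Uqcrq, a small subunit of complex III, had 305, 425 and 496 in kept and 215, 232 and 280 in not kept (-0.75 ± 0.15, adjusted p = 0.00695 with the block, and 0.134 without). Ndufv2 had 226, 364 and 281 against 76.8, 247 and 174 (-0.84 ± 0.19, adjusted p = 0.0109 with the block, and 0.241 without). For Atp5e and for Uqcrq every kept value lay above every value of barcodes not kept, and all 3 genes were lower in 3 of 3 tumors.

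Not all members shared this. Ndufb9, an accessory subunit of complex I, was higher in barcodes not kept with the block, at 244, 637 and 685 CPM against 187, 447 and 465 (0.49 ± 0.15, adjusted p = 0.0289, and 0.482 without the block). Cox4i1 had 512, 880 and 1053 in kept and 536, 1129 and 996 in not kept, and Cox8a 523, 931 and 916 against 617, 900 and 1034, with no common direction. Atp5b had 1100, 911 and 1217 against 515, 958 and 865 and did not pass in either fit. Even within ATP synthase, then, the catalytic beta subunit was not among those called. These genes were chosen after the values were seen, apart from the most abundant members. Sdhc had 55.9, 50.2 and 54.1 against 49.7, 29.6 and 35.3 (-0.59 ± 0.19, adjusted p = 0.0379 with the block, and 0.205 without).

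In macrophage-like barcodes, 75 members were tested among 5329 genes between not kept and kept. Neither edgeR (1 at an unadjusted p under 0.05) nor DESeq2 (0 unadjusted) nor the fit with the block called a member, beside 0.0% of all genes with edgeR, 28 higher and 3 lower of 5329 with DESeq2 and 53 higher and 33 lower with the block. The members' median was -0.02, against -0.07 over all genes. The difference between tumor-like and macrophage-like barcodes in these changes was not tested.

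The 13 mitochondrial genes are transcribed as long precursors, mt-Nd6 from the light strand and the others from the heavy strand, and the authors' limit on the total share made no use of their balance. In kept tumor-like cells mt-Atp6 gave 23.2%, 25.0% and 28.7% of the mitochondrial UMIs, mt-Co3 19.2%, 21.4% and 18.2%, mt-Co2 13.5%, 16.8% and 15.8%, and mt-Co1 13.3%, 9.58% and 8.39%. The others were mt-Cytb at 9.996%, 7.998% and 8.96%, mt-Nd2 at 6.07%, 5.34% and 6.43%, mt-Nd4 at 6.14%, 5.91% and 6.025%, mt-Nd1 at 4.47%, 4.01% and 4.13%, and mt-Nd3 at 1.85%, 1.82% and 1.76%. The smallest were mt-Nd5 at 0.8595%, 0.773% and 0.683%, mt-Nd4l at 0.603%, 0.816% and 0.418% and mt-Atp8 at 0.759%, 0.488% and 0.463%. At the other end mt-Nd6 gave 0.0781%, 0.0646% and 0.0807%. Transcripts of complex V and complex IV subunits thus made up most of the mitochondrial UMIs in every tumor, although 3' capture of these transcripts need not be even between genes. The neighbors mt-Atp8 and mt-Atp6 overlap on the genome (chrM:7766-7969 and chrM:7927-8607 in GENCODE M21), so their reads may not be split cleanly.

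Between classes, the clearest differences were in mt-Cytb, the only mitochondrial subunit of complex III, and mt-Co1, the catalytic subunit of complex IV. The mt-Cytb share was 11.8%, 10.9% and 11.8% in kept endothelial-like cells and 11.2%, 9.17% and 10.6% in CAF-like cells, against 7.16%, 6.84% and 8.24% in macrophage-like and 8.16%, 7.15% and 7.01% in T cell-like cells. The endothelial-like and CAF-like values lay above the macrophage-like and T cell-like ones in every tumor. The mt-Co1 share was 17.0%, 13.5% and 11.1% in kept macrophage-like cells, and that of neutrophil-like cells 20.05%, 12.9% and 10.1%, above the tumor-like value of the same tumor each time. In the erythroid-like barcodes not kept of tumor 1 mt-Co1 reached 39.1%, while mt-Nd1 was at 1.57%, against 4.47% in kept tumor-like cells of that tumor.

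Kept and not kept barcodes had a similar mitochondrial balance, despite totals that differed several times over. The mt-Nd1 share was larger among not kept barcodes in all 3 tumors, at 4.67%, 4.56% and 4.49% against 4.47%, 4.01% and 4.13% in tumor-like and 5.25%, 5.11% and 5.08% against 4.65%, 4.18% and 4.56% in macrophage-like barcodes. The mt-Co1 share was smaller in barcodes not kept of both classes in every tumor, at 12.04%, 8.34% and 7.97% in the tumor-like ones. The mt-Atp8 share of kept and not kept tumor-like barcodes was 0.488% and 0.234% in tumor 2 and 0.463% and 0.289% in tumor 3, but 0.759% and 0.758% in tumor 1. None of these differences was tested.

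**Figure D4:**
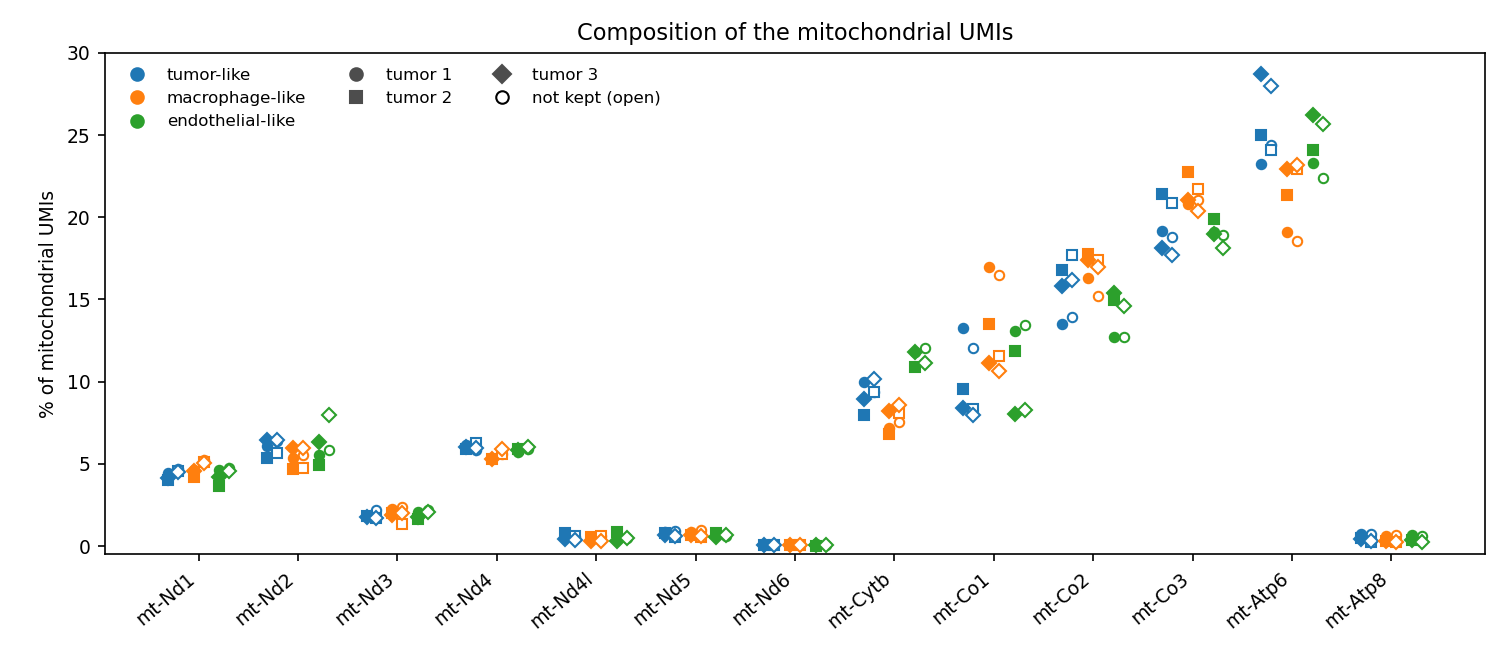
Share of each mt- gene among the mitochondrial UMIs (y, percent) in tumor-like, macrophage-like and endothelial-like barcodes, with 1 marker shape per tumor, filled for kept and open for not kept. Kept and not kept points are drawn side by side, and mt-Cytb is 10.9% to 11.8% in kept endothelial-like cells against 6.84% to 8.24% in macrophage-like cells.

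Nuclear chain genes depend on other genes for carriers, assembly and expression of the mitochondrial genome, and lists of these were fitted alongside. In kept tumor-like cells, 5 of 7 tested genes (of 16 listed) of mitochondrial DNA and RNA were higher, with a list median of 1.43, beside 24.6% of all genes tested higher and a median of 0.37. They are Tufm and Tsfm, elongation factors of mitochondrial translation (2.05 ± 0.54, adjusted p = 0.0124, and 1.51 ± 0.36, 0.00897), Tfam, which packages mitochondrial DNA (1.24 ± 0.35, 0.0159), and Lrpprc and Slirp, which stabilize mt- transcripts (1.43 ± 0.38, 0.0125, and 0.92 ± 0.34, 0.0497). Tsfm had 82.0, 100 and 118 CPM there. These are single calls, and the list as a whole was not tested. Of a list of electron carriers and subunits that the symbols miss, 2 of 5 were higher, cytochrome c (Cycs, 1.09 ± 0.32, adjusted p = 0.0207) and cytochrome c1 (Cyc1, 1.12 ± 0.34, 0.0223). Cytochrome c1 is a core subunit of complex III whose symbol the rule does not cover. Of complex I assembly factors 2 of 4 were higher (Ndufaf2, 2.22 ± 0.54, and Ndufaf4, 1.32 ± 0.42), of the assembly factors of the other complexes 2 of 13 (Cox19 and Cmc2), which is below the share over all genes, of import and mitophagy genes 4 of 8 (Phb2, Tomm40, Timm44 and Tomm20), and of the transcriptional regulators 0 of 1. No gene on these lists was lower. These calls share the scaling that moved the median of all genes. Tufm and Ndufaf2 had 0 CPM in erythroid-like cells of tumors 2 and 3, so their changes depend on the prior count. Ndufaf4, Timm44, Tsfm, Tfam, Lrpprc, Cox19 and Cmc2 also had 0 CPM in some class of tumor 2 or 3, so their changes depend on it too. In tumor 2 Tufm had 53.1 CPM in tumor-like cells, below 94.3 in CAF-like and 69.7 in neutrophil-like cells.

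Between not kept and kept tumor-like barcodes, 1 of 35 assembly factors of complexes II to V was called without the block, Ttc19, a factor of complex III, at 67.8, 71.0 and 82.5 CPM in not kept and 18.2, 31.2 and 26.9 in kept (1.51 ± 0.25, adjusted p = 0.0423). Its direction was opposite to that of 6 of the 8 members of complex III. The call did not hold with mt- genes left out of the library sizes and the fit, where 0 of 10212 genes were called. None of the 8 electron carriers, 14 complex I assembly factors, 15 genes of mitochondrial DNA and RNA, 6 regulators and 10 import and mitophagy genes was called by edgeR without the block. With the block, 4 of 8 carriers were lower (Cycs, Etfa, Etfb and Coq7) and 1 higher (Etfdh), 6 of 35 assembly factors of complexes II to V were lower and 3 higher, and 1 import gene was lower (Tomm7), beside 11.6% of all genes lower and 17.3% higher in that fit. The same fit had the polymerases of the mitochondrial genome, Polg (1.18 ± 0.21, adjusted p = 0.00389) and Polrmt (1.42 ± 0.32, adjusted p = 0.0104), higher, and Tsfm and Slirp lower.

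Promoters of the nuclear members were searched for short motifs of factors known to drive respiratory chain genes. The sequences are from RefSeq on the build GRCm38.p6, 250 bases before to 50 after the start of each gene. Of the 85 members 69 were matched, 67 by symbol and 2 by gene ID. Motifs were counted on both strands. The Nrf1 core CGCATGCG occurred at 9 of 69 members (13.0%), against 2.07% of all 27025 genes in the table. The Yy1 motif AAGATGGC occurred at 10 members (14.5%) against 3.19%, the ETS motif CCGGAAGT at 5 (7.25%) against 4.31%, and the E-box CACGTG at 6 (8.70%) against 8.09%. These shares describe letters in a window and not binding, and no difference was tested. One promoter is shown per motif, each of a complex I gene that passed the test in a class above, and capitals mark the motif.
Ndufs7: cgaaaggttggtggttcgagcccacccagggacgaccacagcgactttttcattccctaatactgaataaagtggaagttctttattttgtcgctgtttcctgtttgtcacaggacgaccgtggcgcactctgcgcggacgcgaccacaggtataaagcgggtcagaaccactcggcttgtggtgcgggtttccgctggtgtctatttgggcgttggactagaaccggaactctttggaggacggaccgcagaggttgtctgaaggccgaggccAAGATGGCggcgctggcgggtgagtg
Ndufa11: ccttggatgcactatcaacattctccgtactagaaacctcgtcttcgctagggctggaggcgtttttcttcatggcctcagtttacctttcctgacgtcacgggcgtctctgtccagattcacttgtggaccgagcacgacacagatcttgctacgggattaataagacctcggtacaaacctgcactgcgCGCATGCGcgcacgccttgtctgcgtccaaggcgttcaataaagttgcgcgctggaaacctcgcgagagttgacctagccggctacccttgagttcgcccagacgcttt
Ndufs3: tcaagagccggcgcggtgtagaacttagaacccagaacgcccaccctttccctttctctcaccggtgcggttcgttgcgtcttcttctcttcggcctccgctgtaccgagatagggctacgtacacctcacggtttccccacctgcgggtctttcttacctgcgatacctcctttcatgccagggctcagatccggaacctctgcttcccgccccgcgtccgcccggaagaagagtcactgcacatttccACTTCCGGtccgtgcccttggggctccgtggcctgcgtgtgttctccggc
Ndufv1: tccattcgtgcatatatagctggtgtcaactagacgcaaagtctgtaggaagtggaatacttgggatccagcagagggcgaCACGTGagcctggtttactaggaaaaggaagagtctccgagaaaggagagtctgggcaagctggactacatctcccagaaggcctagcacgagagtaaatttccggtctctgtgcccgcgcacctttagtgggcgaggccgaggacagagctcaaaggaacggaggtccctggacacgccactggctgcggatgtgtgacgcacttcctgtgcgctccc
The first lies at chr10:80249199-80249498 on the plus strand and holds the Yy1 motif. The promoter of Ndufa11 lies at chr17:56717512-56717811 on the plus strand with the Nrf1 core. Those of Ndufs3 (chr2:90904672-90904971, with the ETS motif on the opposite strand) and Ndufv1 (chr19:4012706-4013005, with the E-box) are on the minus strand. Ndufs7 was among the members higher in tumor-like cells, and the other 3 among those lower in neutrophil-like cells.

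These data hold 3 tumors of 1 genotype, so the sign-flip test over tumors could not reach a p under 0.25, and no other genotype or treatment is compared. Doublets were removed by the authors from the kept set, and among barcodes not kept they cannot be told apart. A few barcode sequences occur in more than 1 library (8, 1 and 8 between tumors 1 and 2, 1 and 3, and 2 and 3). Free RNA was not subtracted from the raw counts. Whether a high mitochondrial share came from the tissue or from dissociation was not tested. UMIs count molecules by their 3' ends and need no length scaling, reads shared with pseudogenes were not examined, and protein and respiration were not analysed here.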

How the data were processed

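Single-cell RNA was measured in 3 tumors of TH-MYCN mice, 1 library each. The raw matrices deposited by the authors hold UMI counts per gene and barcode before their filters. The normalized matrices deposited by the authors hold corrected counts, each raised by 1 and put on the natural log scale with no scaling by depth, for barcodes that passed their removal of ambient RNA, doublets and outlying barcodes. The submitters' processing notes name Cell Ranger 3.1.0, Seurat 3.1.5 and 3 and the build mm10. All values reported come from the raw counts, and the normalized matrices gave the kept status and an alternative.

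All 13622 barcodes (at least 200 UMIs outside the mt- genes) were clustered with Seurat 5.3.0 in R 4.3.3: 2000 variable genes, integration of the tumors by canonical correlation, 30 dimensions, 20 neighbors, resolution 1. Members and the pathway genes were held out. A cluster was named when at least 3 markers of a class were 2-fold above the lower quartile of clusters (10 CPM added) and found in at least 10% of its barcodes. Depth was 17319241, 21829496 and 20041044 UMIs, and a share of 1% in a sum of few barcodes carries more counting error than in the large classes.

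Sums of at least 10 barcodes were tested with edgeR 4.0.16 (TMM, filterByExpr, quasi-likelihood, Benjamini-Hochberg, threshold 0.05) and DESeq2 1.42.0. The code was tested on simulated data. Shares were compared over tumors with the exact sign-flip test. Tables and figures used Python 3.11.15, numpy 2.4.6, scipy 1.17.1, pandas 2.3.3 and matplotlib 3.10.9. The tumor is the replicate. Sums with the same tumor number come from the same animal per the labels. Residuals of tumor-like sums of the same tumor correlated with a median of 0.457, against -0.237 between tumors. Those of macrophage-like sums correlated with 0.390 against -0.325, and those of classes with 0.295 against -0.0988. The mean of each group over tumors was subtracted first. Negative values between tumors thus follow from positive ones within a tumor and are no separate support.

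Genes named are every mt- member, Sdha to Sdhd, the 3 most abundant nuclear members per complex in kept tumor-like cells, tissue isoforms with their common forms, and up to 5 members per direction with the largest fold past the threshold, the same direction in every tumor and at least 50 CPM. A few further genes, such as Uqcrfs1, Atp5a1, Ndufb9 and pathway genes, were named after their values were seen. Members and lists were chosen with earlier results of these data known. Alternatives were the other tool, no filter, the tumor as a block, no mt- genes in library sizes, each tumor left out, other resolutions, no integration and the authors' corrected counts. Further ones, chosen after seeing the data, counted the cluster led by hemoglobin genes as tumor-like, left out the erythroid-like class, or split the tumor-like clusters.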

Additional observations from a re-analysis of the deposited data

Results flagged for a closer look

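The same mt- gene differed between not kept and kept barcodes in opposite directions in 2 classes, and this difference between groups is what singled it out. The mt-Co2 share of mitochondrial UMIs in not kept minus kept barcodes was -0.625 points on average in macrophage-like barcodes (kept and not kept 16.3% and 15.2%, 17.8% and 17.4%, 17.4% and 17.0% in tumors 1, 2 and 3). In tumor-like barcodes it was 0.569 points (13.5% and 13.9%, 16.8% and 17.7%, 15.8% and 16.2%). The mt-Nd4l difference was 0.0916 points in macrophage-like barcodes (0.442% and 0.594%, 0.536% and 0.649%, 0.332% and 0.342%) and -0.0813 points in tumor-like ones (0.603% and 0.560%, 0.816% and 0.630%, 0.418% and 0.403%). Each held its sign in 3 of 3 tumors. The difference between the classes was not tested, and its cause cannot be told from these counts.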

How the results depend on the processing

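The higher nuclear share of kept tumor-like cells kept its sign in every tumor under every alternative (0.895 to 1.09 points with a tumor left out, 1.53 with the authors' corrected counts). The lower nuclear share of tumor-like barcodes not kept ranged from -0.535 to -0.344 with a tumor left out. The difference was -0.676 with medians of single barcodes and -0.215 without integration, where 1 of 3 tumors was positive. The macrophage-like difference ranged from 0.0179 to 0.126 and reversed to -0.215 with medians of single barcodes and -0.0208 without integration. As a share of all UMIs the differences were -1.26 in tumor-like and -0.243 in macrophage-like barcodes. That denominator includes the mt- UMIs, and the authors' filter removed barcodes for a high mitochondrial share. A lower value in barcodes not kept is thus partly built in, and the share of all UMIs cannot decide the direction.

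In place of 35 members higher in tumor-like cells, 0 were called with DESeq2, 1 without the filter, 4 and 0 at resolutions of 0.5 and 2, 0 with corrected counts, 2 without the erythroid-like class and 0 without tumor 1, 2 or 3, while the block gave 55. DESeq2 called 1 lower. In place of 5 lower in neutrophil-like cells, 1 was called with DESeq2, 0 without the filter, 1 and 2 at the resolutions of 0.5 and 2, 0 without integration, 0 with corrected counts, 0 without the erythroid-like class and 0, 1 and 0 without tumor 1, 2 and 3, while the block gave 13. Higher in neutrophil-like cells were 3 with DESeq2, 1 without the filter and 1 with the block. In CAF-like cells 2 in place of 1 were higher with DESeq2, without the filter, without integration, without the erythroid-like class and without tumor 2 or 3, and 1 without tumor 1. Endothelial-like cells had 1 higher without the filter, without integration and without tumor 3, and macrophage-like cells 2 without the filter, 1 without integration and 1 with the block. Plasmacytoid dendritic-like cells had 0 with DESeq2. Between not kept and kept tumor-like barcodes the block gave 1 higher and 31 lower in place of 0. The block changed no other call count. Fewer sums were fitted with a tumor left out, and the cause was not tested.

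Medians of single barcodes gave a mitochondrial share of 1.73% in kept tumor-like, 3.54% in kept macrophage-like, 4.9993% and 22.5% in kept and not kept CAF-like, 5.70% and 29.6% in kept and not kept endothelial-like, 0.830% in kept neutrophil-like (0.434% with corrected counts) and 2.91% in all kept barcodes. With corrected counts the shares of mitochondrial UMIs were 0.718% for mt-Atp8, 4.78% for mt-Nd1, 2.30% for mt-Nd3, 6.24% for mt-Nd4, 0.757% for mt-Nd4l and 0.999% for mt-Nd5. Shallow classes of few barcodes limit the tests of rare members.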
